A study of Homo sapiens with 2 samples.

Results

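The plakins are a family of very large cytolinker proteins, and their transcripts were followed here with wild-type p53 switched off or on in DLD-1, a line from a human colorectal carcinoma. The family was represented by 7 genes, EPPK1, PLEC, DSP, PPL, EVPL, MACF1 and DST. It was chosen by the measured ratio of EPPK1, one of the largest on these arrays, so the ratios of its members are a description and carry no test. Every probe set annotated to one of these genes alone was used, which gave 28 probe sets of 41091 with a single gene symbol, and 7 genes of 19775.

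Wild-type p53 came in both cultures from a stably transfected tet-off system, which tetracycline represses. The p53 off cells grew in tetracycline, and the p53 on cells were sampled 9 h after its removal. RNA of each culture was hybridised to 1 Affymetrix array, 2 arrays in all. With 1 array per condition no difference has a replicate check, and p53, the medium and any other difference between the cultures cannot be told apart. All results are from 1 line, and the labels do not say whether it is 1 clone.

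Plakins tie the cytoskeleton together and anchor it at cell junctions. Several of them bind keratin filaments through plakin repeats near their carboxyl end, and the spectraplakins also bind actin and microtubules. In epithelia they reinforce desmosomes, hemidesmosomes and the keratin network.

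With p53 on, 5 of the 7 genes were at least 2-fold higher on their brightest probe set and none was at least 2-fold lower. The same thresholds were passed by 15.3% (higher) and 13.5% (lower) of all 13915 measured genes. The order of the log2 ratios (p53 on over p53 off) was EPPK1 at 5.98, EVPL at 1.99, DST at 1.61, PLEC at 1.50, MACF1 at 1.16, DSP at 0.72 and PPL at 0.16. The median of the 7 genes was 1.50, and that of the 6 genes without EPPK1 was 1.33, beside 0.0035 over all measured genes. Neighbours in this order other than EPPK1 and EVPL lay closer together than the probe sets of DST or MACF1 did among themselves.

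**Figure D1:**
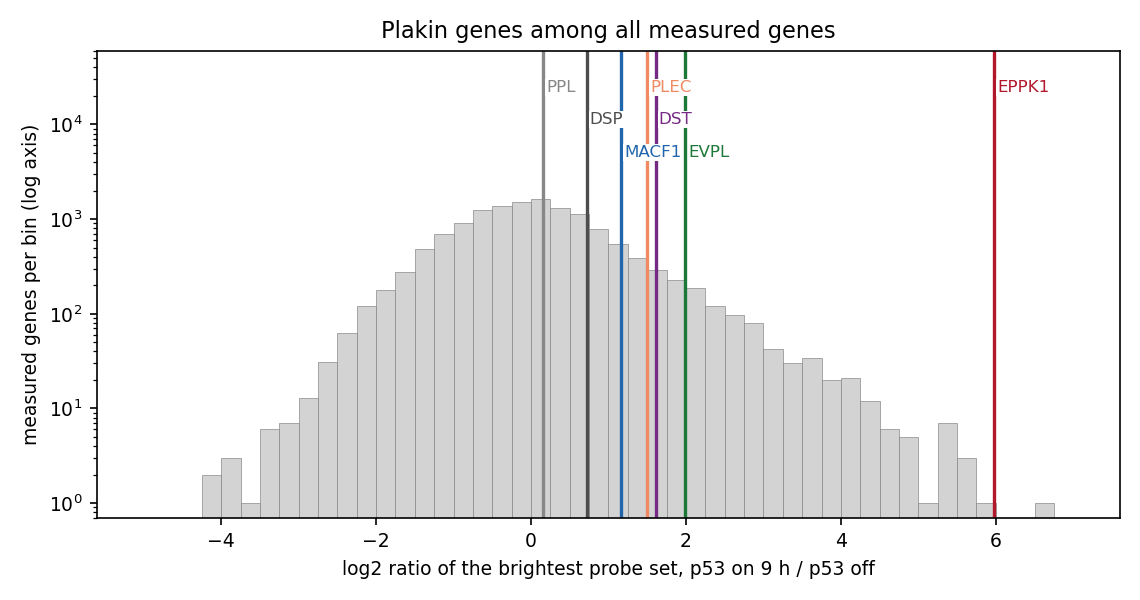
Histogram of the log2 ratio (p53 on 9 h over p53 off) of the brightest probe set of all 13915 measured genes, with the number of genes per bin on a log axis and the 7 plakin genes as coloured lines. Among the members EPPK1 stands apart at 5.98, and the others lie between 0.16 and 1.99.

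A signal counted as measured where at least 1 of the arrays reached a floor of 112.4, the median of all signals that were not controls. Of the 28 plakin probe sets 24 were measured, and the 4 others, all of DST, were under the floor on both arrays. A probe set had to reach the floor on only 1 array, so the measured ones are not all the members. A difference of 2-fold or more was seen upward in 13 of these 24 and downward in 0, where bounds under 2-fold were not counted, beside 14.0% and 13.0% of all 25962 measured probe sets. All 24 had a higher p53 on signal by some amount, as did 49.6% of all measured probe sets, and 22 of 24 did after quantile normalization or loess. Among the 24, 234552_at and 234555_at of EPPK1, 1553407_at of MACF1 and 204455_at of DST reached the floor with p53 on only. These could only come out higher, and 234552_at and 204455_at are among the 13 counted above. Of the DST probe sets left out, 220154_at, 215814_at and 1553191_at read lower with p53 on and 216918_s_at read higher, all under the floor. Without the probe sets of EPPK1 the count was 9 of 19 at least 2-fold higher. No p-value is given for any of these counts.

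The arrays differed in their controls. The signal from the 3' end of beta-actin was 1.37 times that from the 5' end with p53 off and 7.29 times with p53 on, and for GAPDH the ratio was 0.97 and 1.77. Plakin transcripts are very long, and the place of each probe set along its transcript was not used here, so the part of this 3' shift in their ratios was not tested. For the 18 hybridization spike-in probe sets the p53 on signal was a median of 1.89 times the p53 off signal. When they set the scale, the median of all measured genes moved to -0.80 and 15 of the 24 plakin probe sets then measured were above 0, beside 19.0% of all measured probe sets. Directions are therefore given relative to the median gene.

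**Figure D2:**
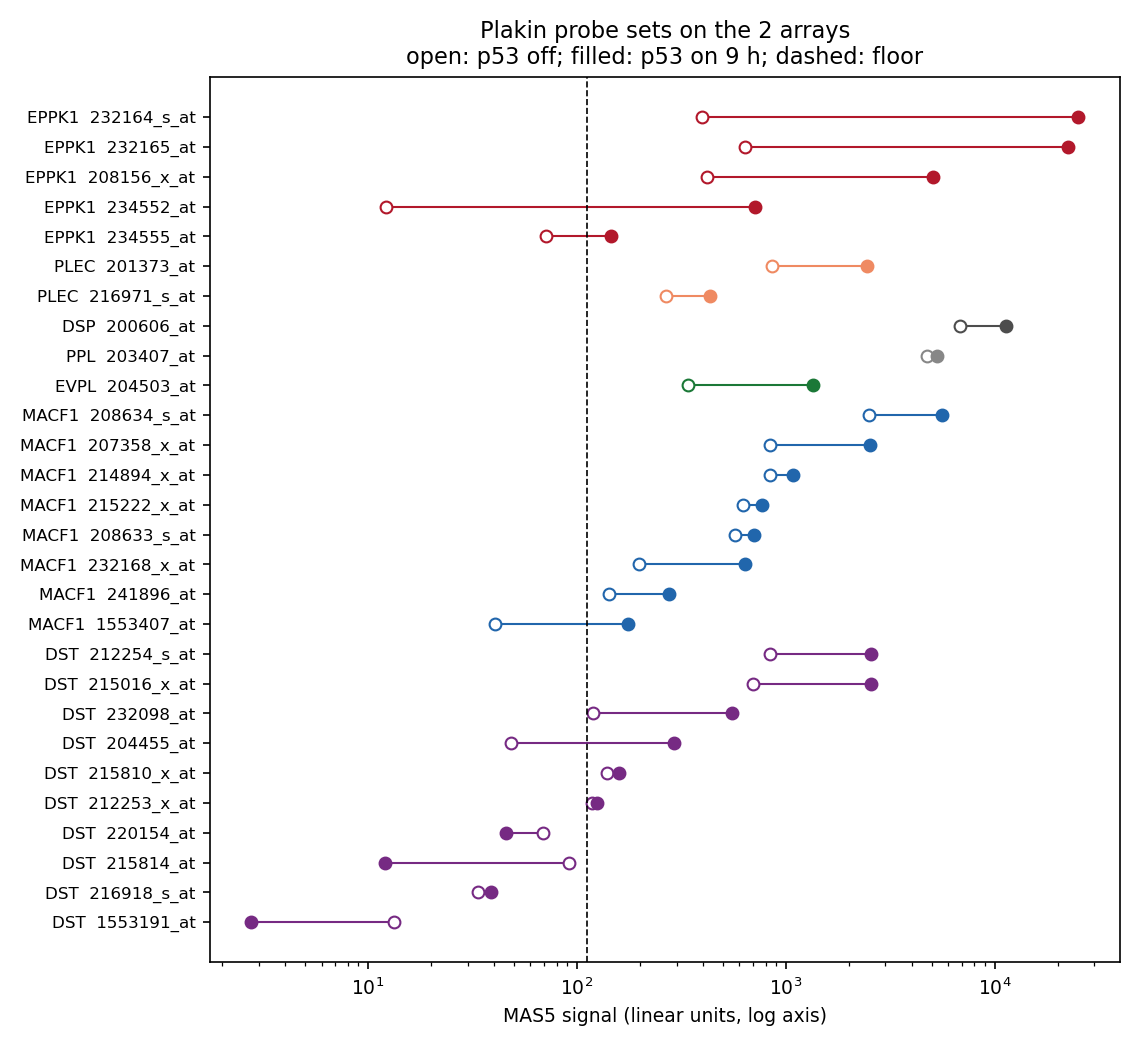
MAS5 signal (log axis) of each of the 28 plakin probe sets, as an open circle for the p53 off array and a filled circle for the p53 on array, with the floor of 112.4 dashed. The line is longest for EPPK1, whose brightest probe set went from 398.1 to 25145, and 4 DST probe sets lie left of the floor on both arrays.

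EPPK1 encodes epiplakin, which is built almost wholly of plakin repeats and binds keratin filaments of simple epithelia. Its brightest probe set, 232164_s_at, read 398.1 without and 25145 with p53, 63.2-fold higher. Probe set 232165_at, designed on the same sequence record, read 640.1 and 22345, 34.9-fold higher. Both signals of these probe sets were above the floor, so these folds are measured on both sides. Probe set 208156_x_at read 420.9 and 5060 and was 12.0-fold higher. The suffix x marks probes that may match other transcripts, and s marks probes shared by several transcripts. Such cross-matching was not tested.

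The remaining EPPK1 probe sets were dim with p53 off, and share a design record of their own. Probe set 234552_at read 12.2 and 709.0, at least 6.31-fold higher. On 234555_at the signals were 71.1 and 146.0, at least 1.30-fold higher, a lower bound under 2-fold. All 5 probe sets were thus brighter with p53 on, 4 of them by at least 2-fold. The 3 that were above the floor on both arrays ranged over 2.39 on the log2 scale. Among the 1292 genes with 3 such probe sets this range had a median of 0.88, with quartiles of 0.56 and 1.29. The mean log2 ratio of all 5 was at least 3.55 and their median at least 3.59. With no floor these were 4.32 and 5.13.

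In the order of all 13915 measured genes EPPK1 ranked 2. Just above it stood ITGB8, the integrin beta 8 subunit, at 89.3 and 11745 or at least 104.5-fold. Next below were REEP1, which shapes the endoplasmic reticulum, at 131.5 and 6993 or 53.2-fold, then PMEPA1 at 18.8 and 5624 with a log2 ratio of at least 5.65, and NDRG1 at 660.7 and 30535 or 46.2-fold. Genes entered this order on their brightest probe set and bounds at their limit, so PMEPA1 may stand higher than its place here. Likeness here means a near ratio between the same 2 arrays and nothing more.

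PLEC encodes plectin, which links keratin filaments to hemidesmosomes and to actin. Probe set 201373_at read 861.2 and 2439 on the p53 off and p53 on arrays, 2.83-fold higher. Its other probe set, 216971_s_at, read 266.7 and 434.8, a ratio of 1.63. Both were brighter on the p53 on array, and the range of 0.80 between them on the log2 scale compares with a median of 0.53 over 2846 genes with 2 probe sets above the floor on both arrays. Scaled to the spike-ins, the brighter one kept a log2 ratio of 0.58 and the dimmer one turned to -0.21, beside a median of -0.77 over all measured probe sets.

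EPPK1 and PLEC are next to each other among the protein-coding genes of chromosome 8 in the RefSeq table of GRCh38.p14. The gene on the far side of PLEC, PARP10, an ADP-ribosyltransferase, read 228.8 and 602.7, 2.63-fold higher. On the far side of EPPK1, NRBP2 was not measured on its brightest probe set. No other pair of the 7 genes are neighbours. Beside DSP, RIOK1 and SNRNP48 had log2 ratios of -0.84 and -0.41, and beside EVPL, SRP68 had 0.36. Beside PPL, UBN1 had 0.76 and SEC14L5 at least 2.40, and beside DST, COL21A1 had at least 1.54. For the remaining neighbours no ratio was measured.

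DSP encodes desmoplakin, the protein that fastens keratin filaments to desmosomes. Its single probe set, 200606_at, was bright on both arrays, at 6858 and 11275, a ratio of 1.64 that does not reach 2-fold. PPL encodes periplakin, a partner of envoplakin at desmosomes and in the cornified envelope. It also had 1 probe set, 203407_at, at 4727 and 5278, a ratio of 1.12. Scaled to the spike-ins the log2 ratios were -0.20 for DSP and -0.76 for PPL, so their signs depend on the scaling. The median of all measured genes was -0.80 under that scaling, below both.

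EVPL encodes envoplakin, a precursor of the cornified envelope that forms heteromers with periplakin. Probe set 204503_at read 340.7 and 1356, 3.98-fold higher. Its log2 ratio ran from 1.07, after scaling to the spike-ins, to 2.12 after loess. Envoplakin and its partner thus differed in these arrays, at log2 ratios of 1.99 and 0.16, each on a single probe set. The transcripts EVPLL and DSP-AS1, named after members, are no members themselves and were picked after their values were seen. EVPLL, an envoplakin-like gene, read 231.1 and 981.9, 4.25-fold higher. DSP-AS1, a long noncoding RNA antisense to DSP, read 91.8 and 514.8, at least 4.58-fold higher.

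**Figure D3:**
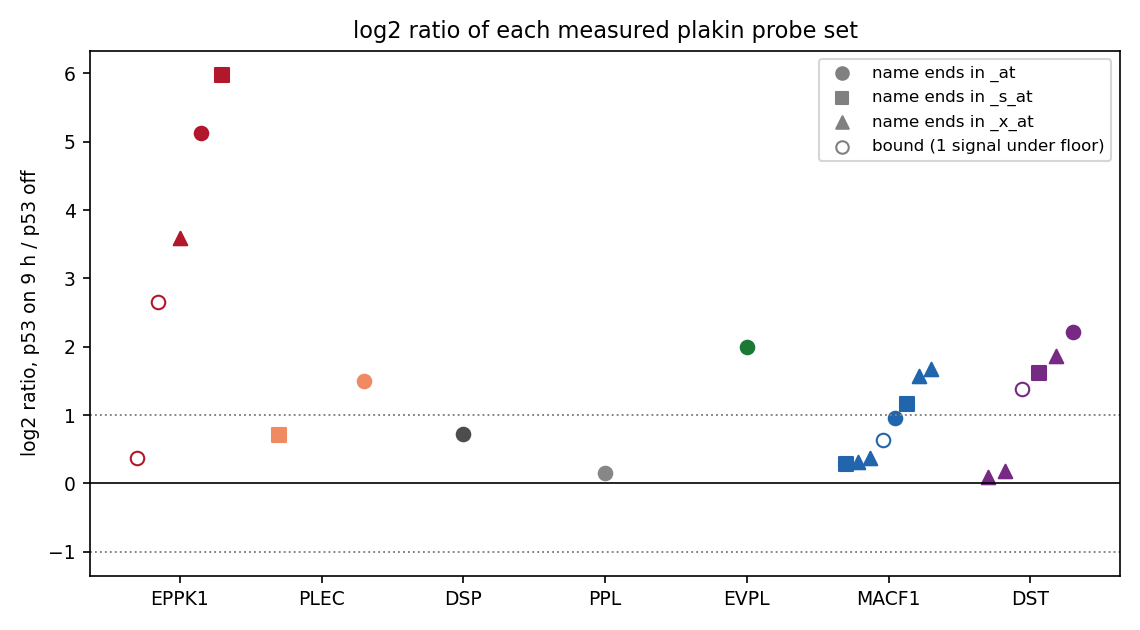
log2 ratio (p53 on 9 h over p53 off) of each of the 24 measured plakin probe sets by gene, with the marker shape giving the ending of the probe set name and open markers for bounds. Dotted lines mark 2-fold, all points lie above 0, and those of EPPK1 reach from a bound of 0.38 to 5.98.

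MACF1 encodes a spectraplakin that crosslinks actin and microtubules. It had 8 probe sets, all measured, and 3 were at least 2-fold higher. The brightest, 208634_s_at, read 2501 and 5603, 2.24-fold higher. Probe set 207358_x_at read 843.6 and 2520, 2.99-fold higher, and 232168_x_at read 199.5 and 637.4, 3.20-fold higher.

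Of the other 5 MACF1 probe sets 4 were under 2-fold and 1 gave only a bound. Probe sets 214894_x_at, 215222_x_at and 208633_s_at had log2 ratios of 0.37, 0.32 and 0.29, from p53 off signals of 841.9, 621.2 and 574.3 to p53 on signals of 1088, 773.3 and 701.4. Probe set 241896_at read 142.2 and 276.4, a ratio of 1.94, and 1553407_at read 40.4 and 175.1, at least 1.56. The 7 MACF1 probe sets above the floor on both arrays spread from 0.29 to 1.68, a range of 1.39 on the log2 scale, beside a median range of 1.49 in the 17 genes with 7 such probe sets. The mean log2 ratio of all 8 was at least 0.87 and their median at least 0.80, because 1553407_at enters as a bound. With no floor both were 1.06, past 2-fold. Scaled to the spike-ins the 3 least changed ones turned negative, down to -0.63 for 208633_s_at, beside a median of -0.77 over all measured probe sets.

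DST encodes dystonin, known from BPAG1 proteins, with an epithelial form at hemidesmosomes and longer spectraplakin forms elsewhere. Of its 10 probe sets 6 were measured and 4 of these were at least 2-fold higher. The brightest, 212254_s_at, read 841.9 and 2570, 3.05-fold higher, and 215016_x_at read 699.7 and 2559, 3.66-fold higher. Probe set 232098_at read 118.9 and 554.0, 4.66-fold higher. Probe set 204455_at, designed on the RefSeq record of the epithelial form, read 48.5 and 293.1, at least 2.61-fold higher.

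Other measured DST probe sets did not share this difference. Probe set 215810_x_at read 139.4 and 158.3 and 212253_x_at read 117.9 and 125.5, ratios of 1.14 and 1.06. Both were near the floor, and their log2 ratios were negative after quantile normalization, loess and spike-in scaling, down to -0.73 and -0.54. These lowest values are from the spike-in scaling, where the median of all measured probe sets was -0.77. The 4 DST probe sets under the floor on both arrays read 69.2 and 45.7 (220154_at), 91.7 and 12.1 (215814_at), 33.6 and 38.9 (216918_s_at), and 13.4 and 2.77 (1553191_at), and no ratio is given for them. The log2 ratios of the 5 DST probe sets above the floor on both arrays ranged over 2.13, beside a median of 1.20 in 186 genes with 5 such probe sets.

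DST and MACF1 each have several transcription starts, and DST with its disagreeing probe sets is shown here with the windows that RefSeq lists for it. The table of GRCh38.p14 holds start windows for DSP (1 window), DST (3) and MACF1 (3), each from 250 bases before a start to 50 after it. Which probe set reads which start was not used here. In the 3 DST windows below, capitals mark matches to the AP-1 motif TGANTCA and to the GC box GGGCGG, searched on both strands, and no AP-1 match overlaps a GC box in them. The first lies at chr6:56954781-56955080, the second at chr6:56851856-56852155 and the third at chr6:56642840-56643139, all on the minus strand.

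DST window 1: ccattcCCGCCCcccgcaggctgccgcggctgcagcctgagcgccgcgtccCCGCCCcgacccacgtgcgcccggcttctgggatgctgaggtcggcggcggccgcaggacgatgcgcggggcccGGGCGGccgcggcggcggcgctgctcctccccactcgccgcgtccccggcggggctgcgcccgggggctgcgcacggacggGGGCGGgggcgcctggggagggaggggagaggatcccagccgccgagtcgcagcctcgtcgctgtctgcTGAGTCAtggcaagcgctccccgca

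DST window 2: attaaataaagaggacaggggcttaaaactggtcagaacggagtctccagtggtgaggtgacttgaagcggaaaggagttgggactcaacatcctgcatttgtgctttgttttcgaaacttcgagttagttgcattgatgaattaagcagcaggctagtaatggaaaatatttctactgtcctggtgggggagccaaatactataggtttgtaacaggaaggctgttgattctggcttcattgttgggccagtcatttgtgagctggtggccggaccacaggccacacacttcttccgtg

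DST window 3: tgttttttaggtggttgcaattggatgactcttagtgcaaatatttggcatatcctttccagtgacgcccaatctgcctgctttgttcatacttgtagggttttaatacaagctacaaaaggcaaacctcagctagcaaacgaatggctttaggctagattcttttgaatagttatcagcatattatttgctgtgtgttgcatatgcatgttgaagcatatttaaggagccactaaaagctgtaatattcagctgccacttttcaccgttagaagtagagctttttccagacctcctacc

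The windows differ in base composition, with 80.0% G and C in the first, 46.3% in the second and 39.3% in the third, beside a median of 58.7% over all 35116 windows of this length. The first held 4 GC boxes and 1 AP-1 match, and the second and the third held neither. Over all windows 45.0% held a GC box and 7.71% an AP-1 match. The single DSP window, at chr6:7541421-7541720 on the plus strand, is shown because 254 of its 300 bases are shared with a start window of DSP-AS1 on the opposite strand, whose signal was also brighter with p53 on.

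DSP window: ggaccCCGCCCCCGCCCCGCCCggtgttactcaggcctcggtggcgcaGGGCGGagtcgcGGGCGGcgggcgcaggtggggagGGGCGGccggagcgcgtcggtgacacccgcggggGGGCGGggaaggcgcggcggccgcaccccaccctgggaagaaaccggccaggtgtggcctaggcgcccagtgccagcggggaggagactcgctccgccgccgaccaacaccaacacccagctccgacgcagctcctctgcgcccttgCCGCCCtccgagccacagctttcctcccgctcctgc

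It held 8 GC boxes, some overlapping, no AP-1 match and 77.0% G and C. The p53 half-site, a motif of 10 bases, had no exact match on either strand in the 7 windows of DSP, DST and MACF1, and 6.63% of all windows had one. No start window was found for EPPK1, PLEC, EVPL or PPL, so these genes were not searched. A pair of half-sites with up to 1 mismatch each and a gap of 0 to 13 bases was found in none of the 7 and in 1.84% of all windows. A match or its absence says only which letters stand in these windows.

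The labelled cell type was checked against 14 colon epithelium markers. EPCAM read 20250 and 35534, CDH1 16970 and 21551, KRT8 21998 and 29300, KRT18 33328 and 57766, and KRT19 12217 and 25916 on the p53 off and p53 on arrays. VIL1, CDX2, CLDN3, CLDN4, CLDN7, ELF3 and LGALS4 were also measured, with ELF3 3.26-fold and LGALS4 6.09-fold higher, and CLDN4 at a log2 ratio of 1.21. On their brightest probe sets CLDN7, CDX2 and CLDN3 had log2 ratios of -0.94, -0.58 and -0.33, and VIL1 had 0.069. The measured probe sets of CLDN3 reached up to 1.10, those of VIL1 down to -1.89 and those of CDH1 down to -0.56. KRT20 and CDX1 were under the floor on both arrays. Of the markers of other cell types with a probe set, 6 of 10 fibroblast, 5 of 10 endothelial and 6 of 10 leukocyte genes were measured. Their summed signals were 1144 and 2224, 695.2 and 954.4, and 1525 and 1750. The defining leukocyte gene PTPRC and the fibroblast gene COL1A1 were under the floor on both arrays. Other markers of these lists were not, since ACTA2, the smooth muscle actin gene, read 521.5 and 1145, 2.20-fold higher, and CORO1A, an actin-binding coronin of leukocytes, read 971.5 and 481.7, 2.02-fold lower. LUM was at least 2.06-fold and LAPTM5 at least 2.21-fold higher, both from p53 off signals under the floor. The part of such cells in the plakin ratios was not tested. In RNA of a whole culture, fewer cells with a transcript and less of it per cell cannot be told apart.

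The junction and filament partners of the plakins did not share one direction. Their counts past 2-fold stand beside 15.3% higher and 13.5% lower over all measured genes. The desmosome list had 8 of 13 genes measured, none higher and 1 lower by 2-fold or more, with a median log2 ratio of 0.072. PKP3, a plakophilin of the desmosomal plaque, was 2.39-fold lower at 2394 and 1000.3, while its other measured probe set had a log2 ratio of -0.12. PERP, a desmosomal membrane protein gene known as a p53 target, had a ratio of 1.78 at 22828 and 40614 on its brightest probe set, and its 4 measured ones ran from 0.29 to 1.75 on the log2 scale. JUP, the plakoglobin gene, had a ratio of 1.49. Over the alternatives this list had 0 or 1 gene higher and 0 to 3 lower by 2-fold or more. Of 7 hemidesmosome genes 4 were measured, 1 was higher and 1 lower, with a median of 0.18. ITGA6, the integrin alpha 6 subunit, read 5928 and 18969 and was 3.20-fold higher, CD151, a tetraspanin bound to it, was 2.10-fold lower at 2689 and 1281, and LAMB3 had a log2 ratio of 0.53. Over the alternatives 0 or 1 of these genes was higher and 0 to 2 were lower. In both lists the most lower genes came with spike-in scaling, where the median of all measured genes was -0.80.

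Filament and envelope genes were also counted beside 15.3% higher and 13.5% lower over all measured genes. Of 19 epithelial intermediate filament genes 10 were measured, with 4 higher, 1 lower and a median of 0.70, or 0.19 after quantile normalization. Over the alternatives 3 or 4 of these genes were higher and 0 to 3 lower, with 3 lower only after spike-in scaling. KRT7, the lower one, read 356.8 and 46.6 on its brightest probe set, at least 3.18-fold lower. Its other measured probe set had a log2 ratio of 0.50. KRT1, KRT5, KRT13 and KRT14 were under the floor on both arrays. KRT7 and these were named after their values were seen. KRT15, a keratin of stratified epithelia, was 11.9-fold higher at 117.7 and 1401, KRT16 at least 4.21-fold at 11.8 and 472.6, and KRT4 4.01-fold at 125.3 and 502.4. The cornified envelope list, to which EVPL and PPL belong by role, had 10 of 18 genes measured, 1 higher, 0 lower and a median of 0.32. The brightest of them, SCEL, which encodes sciellin, was named after its values were seen and read 1683 and 1192. Its 3 measured probe sets ran from -1.19 to -0.50 on the log2 scale. The count of genes at least 2-fold higher ran from 0 to 4 and that of lower ones from 0 to 2 over the alternatives. The 2 lower came with spike-in scaling, where the median of all measured genes was -0.80. TGM5, a transglutaminase, was at least 2.04-fold higher at 111.6 and 228.8. CSTA, the cystatin A gene, had a log2 ratio of at least 0.72 and SPRR1B of at least 0.59.

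Microtubule and actin partners of the spectraplakins were counted the same way, beside 15.3% higher and 13.5% lower over all measured genes. All 13 microtubule partners were measured, with 1 higher and 5 lower by 2-fold or more and a median of -0.23. Over the alternatives the number lower ran from 2, with a pseudocount equal to the floor, to 6 of 12 measured after spike-in scaling. The number higher ran from 0 to 2. MAPRE2, of the EB family at microtubule ends, was 2.62-fold lower at 2181 and 833.5 on the brighter of 2 probe sets, with the other at -0.69 on the log2 scale, and CAMSAP2, which binds minus ends, 2.29-fold lower at 2235 and 976.2. APC, a tumour suppressor that binds microtubule ends, read 573.8 and 1466 on its brightest probe set, 2.56-fold higher, but its 5 measured probe sets ran from -0.67 to 1.35. Of 15 other actin linkers of the spectrin superfamily 12 were measured, 1 was higher and 1 lower, and the median was -0.11. SPTAN1, alpha spectrin, was 2.58-fold lower at 4392 and 1703 on its brightest probe set, with the 4 measured ones between -1.37 and 0.39. SYNE2, a nesprin of the nuclear envelope, was 2.16-fold higher at 744.7 and 1609 on its brightest probe set, with the 4 measured ones between 0.37 and 1.11. ACTN4, an alpha-actinin gene, had a log2 ratio of -0.91. Both single calls of the actin linkers, SYNE2 and SPTAN1, were gone with the mean or median of probe sets and without those ending in _x_at and _s_at. Spike-in scaling, which moved the median of all measured genes to -0.80, left 0 higher and 5 lower. Scaled to the spike-ins the medians of these 6 lists ran from -1.19 to -0.19, beside -0.80 for all genes.

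**Figure D4:**
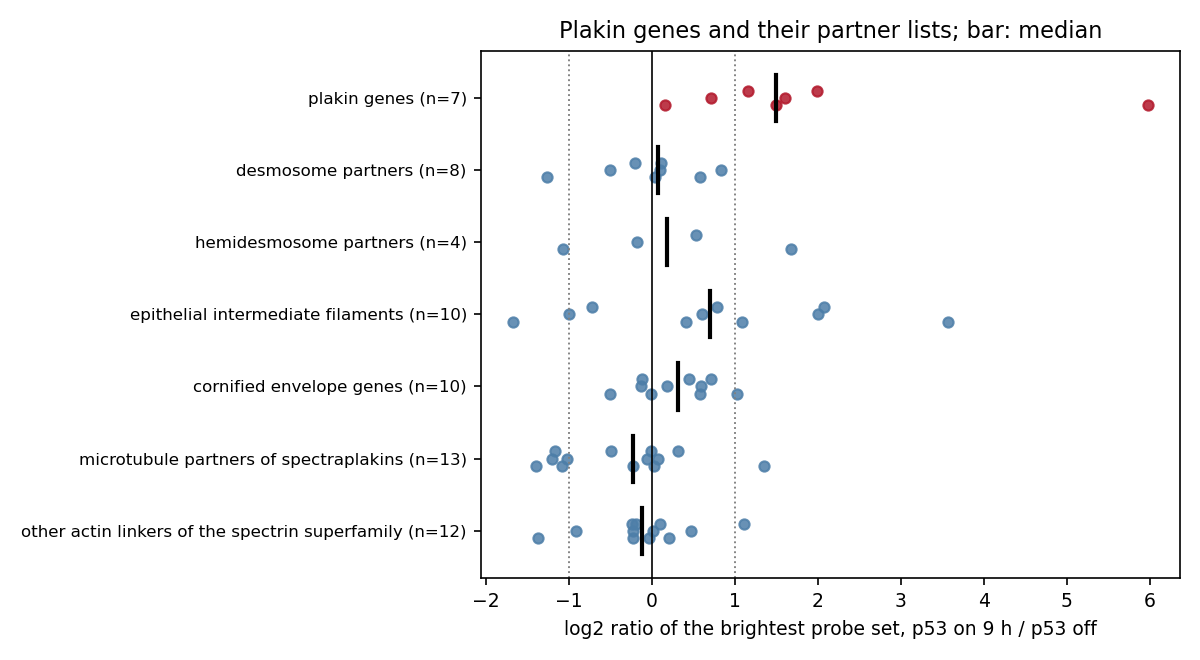
log2 ratio (p53 on 9 h over p53 off) of the brightest probe set of each measured gene, for the 7 plakin genes and 6 lists of their partners, with a bar at each median and dotted lines at 2-fold. The plakin median is 1.50, and those of the lists lie between -0.23 and 0.70.

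The ratios of the 7 genes were recomputed under 11 other ways of processing. EPPK1 ran from at least 3.55, as the mean of its probe sets, to 6.08 after loess, and stayed past 2-fold in each. EVPL also stayed past 2-fold in each. PLEC and DST fell under 2-fold after scaling to the spike-ins, at 0.58 and 0.69. MACF1 fell under it there, at 0.24, without probe sets ending in _x_at and _s_at, at 0.96, and as the mean or median of its probe sets with the floor, but not with no floor.

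**Figure D5:**
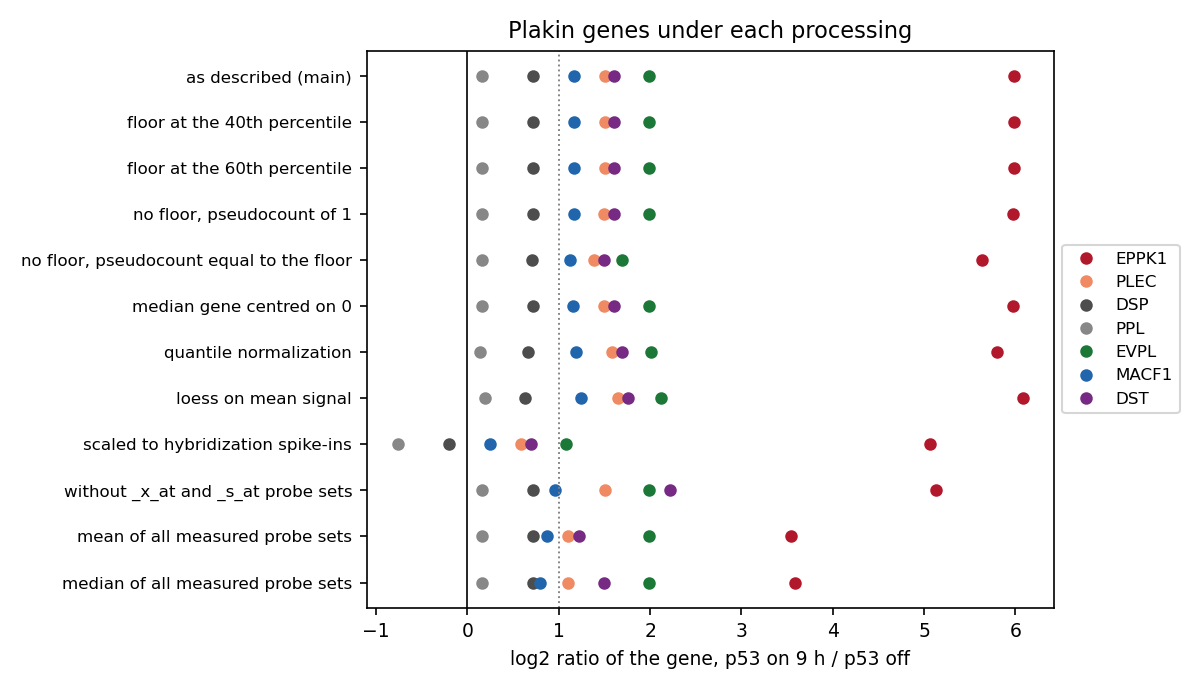
log2 ratio (p53 on 9 h over p53 off) of each plakin gene under the processing described and 11 alternatives, 1 row each, with the dotted line at 2-fold. The spike-in scaling moves all 7 genes to lower values, and EPPK1 lies between 3.55 and 6.08 throughout.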

How the data were processed

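Gene expression was measured on 2 arrays, 1 of DLD-1 cells with p53 off and 1 with p53 on for 9 h. The deposited table holds linear intensities, 1 signal per probe set, which the authors computed with MAS5 (per the submitters' processing notes). For its version, the detection calls and the genome build, nothing was given in the sources used here. The mean signal without the lowest and highest 2% was 500.1 on both arrays, so no further scaling was applied. An array has no read depth, and 1 array per condition limits the precision. Probe sets were named from the platform annotation, with symbols brought up to date by Entrez identifier in the RefSeq table (41037 of 41091 matched). Signals under the floor of 112.4 were raised to it before taking the log2 ratio, a ratio with 1 signal under the floor is a bound, and a gene stands on the probe set with the highest mean signal. No test was made, because each group is 1 array. The calculation was tested on simulated data with 200 changed genes.

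Named are all plakin probe sets, the 3 genes nearest to EPPK1 on each side in the order of ratios, of which only 1 exists above it, and the 3 members of each partner list with the largest absolute log2 ratio, beside the colon markers. The members and lists were chosen with earlier results of these data known. The alternatives were a floor at the 40th or at the 60th percentile, a pseudocount of 1 or equal to the floor, median centring, quantile normalization, loess (span 0.3), spike-in scaling, leaving out probe sets ending in _x_at and _s_at, and the mean or median of probe sets. The mean and median were repeated with no floor, an alternative chosen after seeing the data. Software was numpy 2.4.6, pandas 2.3.3, statsmodels 0.14.6 and matplotlib 3.10.9 under Python 3.11.15.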

Additional observations from a re-analysis of the deposited data

Results flagged for a closer look

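Control probe sets, which entered the plakin ratios in the spike-in scaling only, stood apart with p53 on. Between the 3' and 5' ends of beta-actin the signal ratio was 7.29 on that array, against 1.37 with p53 off, and for GAPDH it was 1.77, against 0.97. Hybridization spike-ins gave p53 on signals 1.89 times those with p53 off. Their part in the plakin ratios was not tested.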

How the results depend on the processing

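The count of plakin probe sets at least 2-fold higher, 13 of 24, was 6 after scaling to the spike-ins and 6 of 11 without probe sets ending in _x_at and _s_at, where fewer were left to count. Of all measured probe sets 14.0% were at least 2-fold higher in the processing described. This share was 4.96% after spike-in scaling and 14.8% without those endings. The count of plakin genes at least 2-fold higher, 5 of 7, was 2 after spike-in scaling, EPPK1 and EVPL. Under the other alternatives these counts were 12 to 15 probe sets and 4 or 5 genes. No plakin gene or measured probe set was at least 2-fold lower under any alternative run. Dim probe sets gave only bounds, so 234552_at of EPPK1 ran from 2.07 with the floor at the 60th percentile to 5.75 with a pseudocount of 1. The mean and median of a gene's probe sets with no floor were added after seeing the data, and left each of the 7 genes on its side of 2-fold. No paired analysis was possible because each group has 1 array. Leaving out a replicate was not possible for the same reason.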
